A study of Mus musculus with 12 samples.

Results

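The genes described here are the aminoacyl-tRNA synthetases, the enzymes that join each amino acid to its transfer RNA. They were chosen by symbol alone, as the protein-coding mouse genes whose name is an amino acid letter followed by ars, with or without a final 1 or 2, plus Farsa, Farsb, Eprs and Tarsl2. This gave 38 genes of 51826 in the forelimb count table and of 55401 in the culture count tables: 19 for cytosolic enzymes, 2 (Gars and Kars) whose products serve both the cytosol and the mitochondrion, and 17 for mitochondrial enzymes. All 38 were in both sets of tables and all 38 passed the filter on low counts, after which 19987 forelimb genes and 14030 culture genes were tested.

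Charged tRNA is the substrate of every ribosome. In mammals the cytosol and the mitochondrion use largely separate sets of synthetases, all encoded in the nucleus, and several cytosolic enzymes are held together in a multisynthetase complex by the scaffold proteins Aimp1, Aimp2 and Eef1e1. Many cytosolic synthetase genes are textbook targets of Atf4, the transcription factor of the amino acid stress response, and multinucleated osteoclasts, which form from macrophage precursors, are rich in mitochondria.

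RNA was sequenced from mouse forelimbs and from bone marrow cultures in which Impdh2, an enzyme of guanine nucleotide synthesis, had been deleted or not. The forelimb groups were wild type (WT) and Impdh2 Prx-cKO embryos at E12.5, in which the deletion was made in limb mesenchymal progenitors, so that other cells of the limb keep the gene. The culture groups were WT and Impdh2 LysM-cKO, deleted in the myeloid lineage, each as R40D3 and as R0D3. Marrow cells of all 4 culture groups were grown for 3 days with L929 supernatant equal to 20 ng/ml M-CSF, and the protocol then names 40 ng/ml of RANKL, the cytokine that induces osteoclasts. The labels do not spell out R40D3 and R0D3 and give all 8 cultures the same treatment and the same cell type, osteoclast, so both titles are used as names. Each of the 6 groups held 2 libraries. Nothing in the labels gives sex, strain or whether libraries came from separate animals or cultures, so p-values measure only the spread between these libraries.

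Of the cytosolic and dual genes, 5 carry in their promoters the letters TGATGNAA, the core of the C/EBP-ATF response element through which Atf4 is known to act. These letters were searched on both strands in the RefSeq promoter table (GRCm38.p6, 250 bases before to 50 after each start), which held 28 of the 38 genes. They are shown because the response of these genes to R40D3 is described further on. Each window is written 5′ to 3′ on the strand on which the motif reads TGATGNAA, with the motif in capitals, and for each gene the window whose motif lies nearest to the start is given.
Iars, chr13:49682126-49682155, minus strand: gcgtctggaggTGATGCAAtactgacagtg
Gars, chr6:55037960-55037989, minus strand: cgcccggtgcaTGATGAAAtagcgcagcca
Aars, chr8:111033840-111033869, minus strand: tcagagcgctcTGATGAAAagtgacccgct
Tars, chr15:11399655-11399684, plus strand: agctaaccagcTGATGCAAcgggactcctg
Yars, chr4:129189895-129189924, plus strand: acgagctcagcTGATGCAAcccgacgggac
In the table, 4 of 12 cytosolic genes held the motif, 1 of 2 dual genes and 0 of 14 mitochondrial genes, against 4.51% of all 27025 genes in it. A match is a description of these letters, not of a bound site.

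Forelimb libraries held 28892215 to 69466572 counts and culture libraries 16009146 to 19221865. Levels below are CPM, a gene's counts scaled to a common library size with TMM factors, or CPM per kilobase of the principal transcript (RPKM) where genes are compared with each other. Impdh2 stood at 260 and 272 CPM in the WT forelimbs and at 170 and 199 in Prx-cKO, which is 69.3% of WT and did not pass (log2 fold change -0.53, SE 0.16, edgeR quasi-likelihood test with Benjamini-Hochberg adjustment, adjusted p = 0.443). In the cultures it fell to 30.1% of WT at R40D3 and 28.5% at R0D3 (edgeR adjusted p = 0.0386 and 0.0324). Limb mesenchyme markers were above 1 CPM in all forelimb libraries (8 of 8). All 10 osteoclast markers rose from R0D3 to R40D3 in both genotypes, with summed levels of 325 to 471 CPM at R0D3 and 13200 to 38800 at R40D3, and Calcr was at 0 in every R0D3 library, although these too are labelled osteoclast. WT replicate 1 and Prx-cKO replicate 2 of the forelimb held 2190 and 2740 CPM of Xist and the other two 1.59 and 0.35, so that each genotype had 1 library of each kind.

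Cytosolic synthetase transcripts were the more abundant set in both tissues. Their median was 32.9 RPKM in WT forelimb, 17.3 in WT R0D3 and 25.3 in WT R40D3, against 9.9, 3.32 and 6.37 RPKM for the mitochondrial enzymes. The forelimb and culture tables were scaled separately, so levels across them are set side by side without a test. Kars, lysyl-tRNA synthetase, led in the forelimb at 99.9 and 123 RPKM in the WT libraries, followed by Gars, the glycyl enzyme, at 48.5 and 59.4. In the cultures Nars, the asparaginyl enzyme, led in every group, at 83.9 and 88.5 RPKM in WT R0D3 and 99.7 and 111 in WT R40D3. The step from the first to the second gene was wider than the spread of the 2 libraries in the 3 groups named. Mars2, the mitochondrial methionyl enzyme, had the lowest mean RPKM in WT forelimb (1.45 and 2.26) and in WT R0D3 (0.882 and 0.606). In WT forelimb it overlapped Wars2 (3.85 and 1.92). That place depends on the 11294 bases of its principal transcript. In CPM, Pars2 was lower than Mars2 in WT forelimb (7.09 and 7.27 against 16.3 and 25.5) and in WT R0D3 (3.96 and 3.86 against 9.96 and 6.84). Tarsl2, the minor cytosolic threonyl enzyme, was the lowest cytosolic member throughout. Most neighbours in the order could not be told apart: the libraries of adjacent genes overlapped at 27 of 37 steps in WT forelimb, 21 in WT R0D3 and 24 in WT R40D3. Aars, the alanyl gene, shares 1326 exonic bases with Exosc6 on the same strand, and Iars2 shares 2034 with Rab3gap2 on the opposite strand. How the authors assigned such reads, and whether strand was used, is not given in the sources used here, so the levels of these genes are uncertain. Exosc6 held 100 to 3355 counts in the forelimb libraries and 0 in every culture library. Whether reads shared with Aars were assigned alike in the forelimb and culture tables was not tested.

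**Figure D1:**
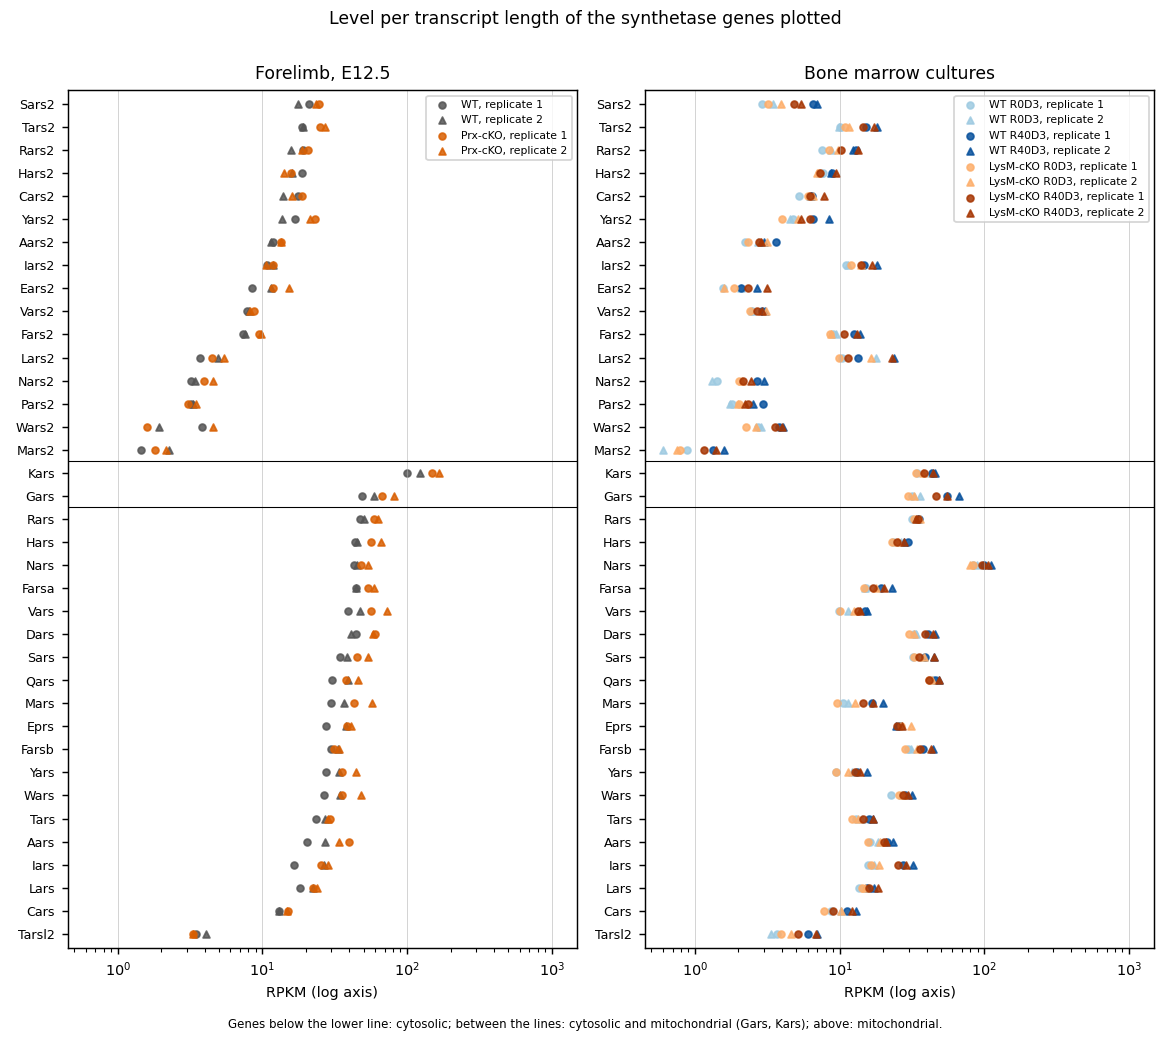
RPKM (log axis) of 37 synthetase genes in each library, forelimb on the left and cultures on the right, with circles for replicate 1 and triangles for replicate 2. Kars stands highest in the forelimb and Nars in the cultures, and most mitochondrial enzymes lie to the left of most cytosolic ones.

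In the forelimb no synthetase gene passed the test for Prx-cKO against WT, yet most stood higher in both Prx-cKO libraries. The number called was 0 of 38, as it was for all genes tested (0.0%). DESeq2 called 0 of the 38 as well. By unadjusted p under 0.05, 9 of 38 genes were reached, against 10.5% of all genes. Both Prx-cKO libraries lay above both WT libraries for 26 of 38 genes, against 22.2% of all genes, and below them for 2, Tarsl2 and Hars2, against 21.0%. The 26 were 15 of 19 cytosolic, both dual and 9 of 17 mitochondrial genes. Median log2 fold changes were 0.33 for cytosolic (18 of 19 above 0), 0.48 for dual and 0.20 for mitochondrial enzymes (14 of 17), where all genes had a median of -0.03 with 47.2% above 0.

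The members with the smallest p among cytosolic enzymes were Dars, Aars and Hars. Dars, the aspartyl enzyme of the multisynthetase complex, measured 96.3 and 88.8 CPM in WT and 132 and 126 in Prx-cKO. Its groups were apart and the difference was 0.48 in log2 units (SE 0.14, edgeR adjusted p = 0.443). Aars measured 117 and 157 CPM in WT and 229 and 195 in Prx-cKO, 0.63 higher in log2 units (SE 0.20, edgeR adjusted p = 0.45). Both Prx-cKO libraries were the higher ones, but Exosc6, whose exons Aars shares, ran at 3.48 CPM in Prx-cKO replicate 1 and 33.1 to 65.7 in the other three, and its part in the value for Aars was not tested. Hars, the histidyl enzyme, measured 86.9 and 89.6 CPM in WT and 111 and 131 in Prx-cKO (log2 fold change 0.46, SE 0.15, edgeR adjusted p = 0.459).

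Kars, the most abundant member, measured 201 and 246 CPM in WT and 300 and 336 in Prx-cKO, again with the groups apart (log2 fold change 0.51, SE 0.17, edgeR adjusted p = 0.459). Vars, the valyl enzyme, went from 162 and 197 to 234 and 302 CPM, and Mars, the methionyl enzyme, from 87.0 and 108 to 126 and 167. These 3 genes were named for their abundance and size of difference after their values were seen. Among mitochondrial enzymes, Tars2 (threonyl) measured 45.4 and 46.1 CPM in WT and 60.6 and 65.4 in Prx-cKO (log2 fold change 0.46, SE 0.15, edgeR adjusted p = 0.452). Yars2 (tyrosyl) measured 26.2 and 21.3 CPM in WT and 36.5 and 33.7 in Prx-cKO (edgeR adjusted p = 0.459, log2 fold change 0.56, SE 0.19), and Fars2 (phenylalanyl) 15.6 and 16.2 against 20.0 and 20.9 (log2 fold change 0.36, SE 0.18, edgeR adjusted p = 0.551). Groups were apart for all 3, but the differences did not pass. At the other end, Hars2, Tarsl2, Iars2 and Pars2 had log2 fold changes from -0.21 to 0.00.

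**Figure D2:**
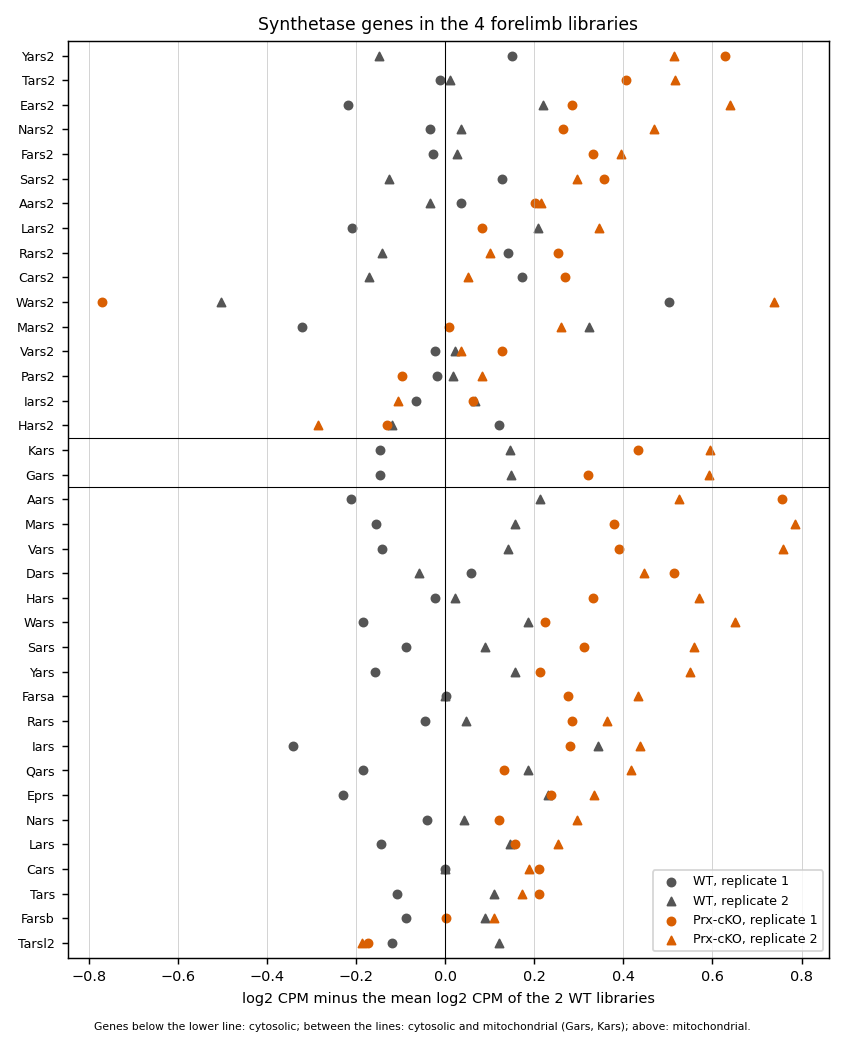
Log2 CPM of 37 synthetase genes in the 4 forelimb libraries, relative to the mean of the 2 WT libraries (vertical line at 0), with Prx-cKO in orange and WT in grey. Both Prx-cKO libraries lie to the right of both WT libraries for 25 of the 37 genes plotted, and Wars2 spreads widest within each genotype.

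Among the partners of these enzymes in the forelimb, the scaffolds and elongation factors of the cytosol all had log2 fold changes above 0, and none of the genes in these lists passed after adjustment. All 3 scaffold genes of the multisynthetase complex were higher in both Prx-cKO libraries, with Aimp2 at 71.8 and 89.0 CPM against 44.9 and 46.6, and all 8 complex enzymes were above 0, around a median of 0.33 in log2 units. The 5 cytosolic elongation factors had a median of 0.44, with 5 above 0. The mitochondrial side was mixed: of 10 translation factors 6 were above 0 and 4 below (median 0.13), and of the 3 subunits of the amidotransferase that makes mitochondrial glutaminyl-tRNA 2 were above and 1 below. Of 7 editing and related charging factors 5 were above 0 (median 0.07). Of 24 amino acid stress genes 19 had a log2 fold change above 0 (median 0.36), where 47.2% of all genes did, and 10 had an unadjusted p under 0.05, where 10.5% did. Groups were apart and higher for 13 of the 24 and apart and lower for 4. One of the 10, the cystine transporter gene Slc7a11, was lower in Prx-cKO, at 21.9 and 22.0 CPM against 31.4 and 33.4. Asns, asparagine synthetase, measured 37.5 and 44.2 CPM in WT and 52.7 and 59.0 in Prx-cKO, whereas Atf4 itself overlapped (205 and 166 against 214 and 189).

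Markers of some limb cell types also differed between these 4 libraries, and their part in the synthetase values was not tested. Summed limb mesenchyme markers were 1400 and 1500 CPM in WT and 1020 and 1110 in Prx-cKO (5 of 8 with the groups apart, all lower). Skeletal muscle markers summed to 369 and 354 in WT against 1030 and 463 in Prx-cKO, endothelial markers to 155 and 159 against 213 and 217, and macrophage markers to 34.7 and 38.4 against 64.7 and 58.9. Proliferation genes overlapped in sum (2170 and 2650 against 2570 and 2820), with 7 of 10 apart and higher. Sums also overlapped for erythroid (4640 and 3330 against 4130 and 3500), surface ectoderm (673 and 825 against 798 and 885), nerve and glia, and stromal fibroblast markers. No list had a defining marker at 0 in both libraries of either genotype in these sums except the osteoclast list (Dcstamp in both genotypes, Atp6v0d2 in Prx-cKO). In such bulk samples, fewer cells of a type and less RNA per cell cannot be told apart. Leaving out each library in turn gave medians of 0.20 to 0.48 for cytosolic, 0.31 to 0.64 for dual and 0.21 to 0.30 for mitochondrial enzymes, and 0 calls each time.

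More synthetase genes passed between culture conditions than between genotypes. In WT cultures 14 of 38 genes rose from R0D3 to R40D3 and 0 fell, where 11.4% of all genes rose and 5.52% fell. They were 5 cytosolic (Iars, Tarsl2, Mars, Vars and Dars), 1 dual (Gars) and 8 mitochondrial enzymes (Nars2, Sars2, Tars2, Mars2, Fars2, Iars2, Rars2 and Wars2). Both R40D3 libraries lay above both R0D3 libraries for 35 of 38 genes, against 32.9% of all genes, and 37 of 38 log2 fold changes were above 0, against 51.2%. Medians were 0.35 for cytosolic, 0.53 for dual and 0.53 for mitochondrial enzymes, beside 0.01 for all genes.

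Iars, the isoleucyl enzyme, measured 69.0 and 76.4 CPM in WT R0D3 and 121 and 143 in WT R40D3. That rise was 0.86 on the log2 scale (SE 0.12, edgeR quasi-likelihood test with Benjamini-Hochberg adjustment, adjusted p = 0.00394), the smallest p of the 38. A processed pseudogene, Gm4849, matches 37.4% of the Iars transcript at 96.0% identity, but it held at most 4 counts in any forelimb library and at most 1 in any culture library. Gars measured 75.4 and 85.9 CPM in R0D3 and 131 and 158 in R40D3 (log2 fold change 0.84, SE 0.14, edgeR adjusted p = 0.00624). Tarsl2, at 11.8 and 10.8 CPM in R0D3, reached 19.2 and 22.3 in R40D3 (log2 fold change 0.88, SE 0.18, edgeR adjusted p = 0.0151). Tars, the main cytosolic threonyl gene, measured 52.2 and 57.2 CPM against 63.7 and 68.2, 0.27 in log2 units, and did not pass (SE 0.11, edgeR adjusted p = 0.143).

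Mars measured 31.3 and 33.6 CPM in WT R0D3 and 49.4 and 58.5 in WT R40D3 (log2 fold change 0.73, SE 0.16, edgeR adjusted p = 0.0209). Vars went from 40.8 and 47.7 to 62.0 and 63.9 CPM (log2 fold change 0.51, SE 0.13, edgeR adjusted p = 0.0346). Dars went from 70.7 and 73.6 to 89.4 and 99.8 CPM (log2 fold change 0.39, SE 0.10, edgeR adjusted p = 0.037). In each of these genes the 2 conditions were apart. The 8 enzymes of the multisynthetase complex did not move alike: Iars, Mars and Dars rose, while Kars, Lars, Rars, Qars and Eprs had log2 fold changes of 0.21, 0.18, 0.09, 0.06 and -0.03 and did not pass. Eprs, the bifunctional glutamyl-prolyl enzyme, measured 124 and 130 CPM in WT R0D3 and 128 and 120 in WT R40D3, and its groups overlapped. Of the 5 genes with TGATGNAA in the promoter, Iars and Gars rose and the others had log2 fold changes of 0.27 to 0.41. Of the 9 cytosolic and dual genes in the promoter table without it, 3 rose, where 11.4% of all genes did. Median log2 fold changes were 0.41 for the 5 and 0.39 for the 9. Of the 14 mitochondrial genes in that table, all without the motif, 8 rose (median 0.535). With the replicate number as a block, 5 of the 5, 6 of the 9 and 10 of the 14 rose, against 16.7% of all genes.

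Among mitochondrial enzymes, Sars2 (seryl) and Nars2 (asparaginyl) had the highest log2 fold changes. Sars2 measured 5.48 and 6.47 CPM in WT R0D3 and 12.2 and 13.0 in WT R40D3 (log2 fold change 1.08, SE 0.18, edgeR adjusted p = 0.0066). Nars2 measured 5.36 and 4.97 CPM against 10.1 and 11.3 (log2 fold change 1.05, SE 0.16, edgeR adjusted p = 0.00574). Both R40D3 libraries of each gene lay well above both R0D3 libraries. Mars2 measured 9.96 and 6.84 CPM in R0D3 and 15.2 and 17.8 in R40D3 (edgeR adjusted p = 0.0172, log2 fold change 0.97, SE 0.20), and Tars2 24.3 and 23.9 against 36.6 and 43.7 (log2 fold change 0.73, SE 0.13, edgeR adjusted p = 0.00923). Fars2 rose from 19.0 and 20.0 to 26.8 and 29.5 CPM and Iars2 from 60.8 and 62.8 to 80.8 and 99.1, with edgeR adjusted p of 0.03 and 0.037. Thus both the cytosolic and the mitochondrial enzyme rose for isoleucine (Iars, Iars2) and methionine (Mars, Mars2). Other pairs differed in this fit: Vars passed and Vars2 did not, and Nars2 and Sars2 passed while Nars and Sars did not. For threonine, Tars2 and the minor cytosolic gene Tarsl2 rose, while the main cytosolic gene Tars did not pass. The lowest mitochondrial log2 fold changes were 0.16 for Cars2 and 0.23 for Hars2, neither of which passed.

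**Figure D3:**
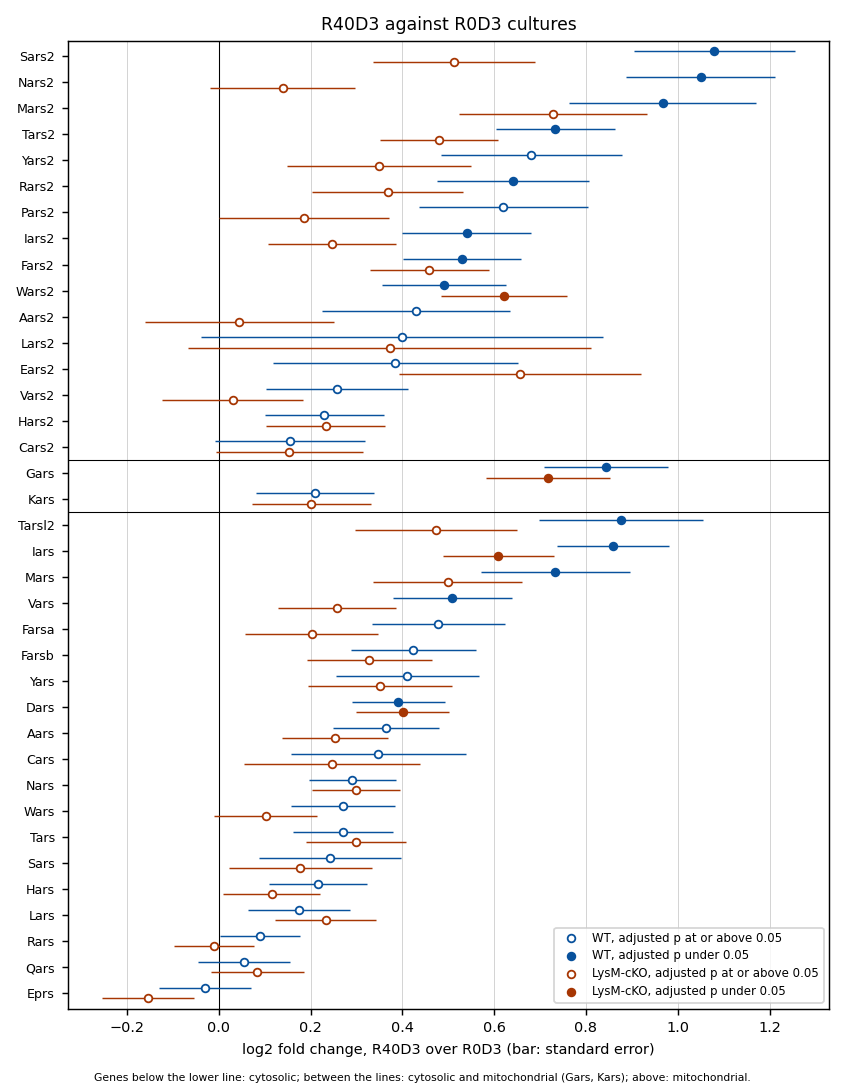
Log2 fold change of R40D3 over R0D3 for 37 synthetase genes, each with its standard error, in WT (blue) and LysM-cKO (brown) cultures. Filled points passed an adjusted p of 0.05: 14 genes in WT and 4 in LysM-cKO, all to the right of 0.

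Part of the other genes of mitochondrial protein synthesis rose in the same WT comparison, in which 11.4% of all genes rose and 5.52% fell. Of 10 mitochondrial translation factors 4 rose and 0 fell, among them the elongation factors Gfm1 (edgeR adjusted p = 0.00339, log2 fold change 1.28, SE 0.17) and Tufm (1.01, SE 0.16, edgeR adjusted p = 0.00585). Another of them, Mtrf1, had a log2 fold change of -0.27 with the groups apart and did not pass. Of the 3 amidotransferase subunits 2 rose, Qrsl1 by 0.86 and Gatb by 0.95 on the log2 scale (SE 0.17 and 0.19, edgeR adjusted p = 0.0129 and 0.0155). The other, Gatc, was lower in both R40D3 libraries, at 24.2 and 23.1 CPM against 27.4 and 28.5, and did not pass (log2 fold change -0.24, edgeR adjusted p = 0.146). On the cytosolic side, 0 of 3 scaffold genes and 0 of 5 elongation factors passed, with medians of 0.42 and 0.13. Of 24 amino acid stress genes 3 rose, Eif4ebp1, Nupr1 and Slc7a1, a share near that of all genes in this fit. With the replicate number as a block, 8 of these 24 rose and 1 fell, where 16.7% of all genes rose. In that fit 1 of 3 scaffold genes and 2 of 5 cytosolic elongation factors also rose. Without the block, Asns missed the threshold (13.0 and 20.0 CPM against 29.0 and 50.5, log2 fold change 1.26, SE 0.36, edgeR adjusted p = 0.0515). Of 14 interferon-gamma response genes tested, a list kept because Wars is a known target of that cytokine, 0 rose and 1, Irf8, fell.

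The count of synthetase genes depended on how the replicates entered the fit. The 2 culture replicates, each deposited as a table of its own, deviated together across groups, and with the replicate number as a block 27 of 38 genes rose (14 cytosolic, Gars and 12 mitochondrial), against 16.7% of all genes. The 14 genes above were all among the 27. Among the 13 added were Aars, Cars, Farsa, Farsb, Nars, Sars, Tars, Wars and Yars of the cytosolic enzymes and Lars2, Pars2 and Yars2 of the mitochondrial ones. Without the block, leaving out WT R0D3 replicate 1 or replicate 2 left 3 genes, leaving out WT R40D3 replicate 1 left 9 and replicate 2 left 1, while the class medians stayed above 0 each time. Summed osteoclast markers were 471 and 352 CPM in WT R0D3 and 26300 and 38800 in WT R40D3, macrophage markers 38200 and 43400 against 26700 and 27400, and proliferation genes 209 and 318 against 175 and 165. Their part in the synthetase values was not tested.

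In LysM-cKO cultures 4 of 38 genes rose from R0D3 to R40D3 and 0 fell, where 6.99% of all genes rose and 3.15% fell. Gars measured 70.1 and 77.8 CPM in R0D3 and 111 and 132 in R40D3 (edgeR adjusted p = 0.0182, log2 fold change 0.72, SE 0.14), and Iars 73.5 and 82.5 against 111 and 127 (log2 fold change 0.61, SE 0.12, edgeR adjusted p = 0.0223). Dars measured 65.5 and 71.2 CPM against 84.7 and 95.8 (log2 fold change 0.40, SE 0.10, edgeR adjusted p = 0.0482). Wars2, the mitochondrial tryptophanyl enzyme, measured 10.0 and 11.7 CPM against 15.8 and 17.6 (log2 fold change 0.62, SE 0.14, edgeR adjusted p = 0.0304). All 4 rose in WT too, where Wars2 went from 12.3 ± 0.44 to 17.3 ± 0.74 CPM (SD, n = 2). Tars2 (26.3 and 28.2 against 34.7 and 41.3 CPM) and Mars2 (8.85 and 8.55 against 13.1 and 15.8) came next and did not pass (edgeR adjusted p = 0.0601 and 0.0676).

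Groups were apart and higher at R40D3 for 26 of 38 genes in LysM-cKO, against 27.3% of all genes, with medians of 0.25 for cytosolic, 0.46 for dual and 0.35 for mitochondrial enzymes beside 0.01 for all genes. Of the 38 log2 fold changes 36 were above 0, against 51.2%. With the replicate block 16 genes rose (9 cytosolic, Gars and 6 mitochondrial), against 13.0% of all genes. Without the block, 0 genes were left when LysM-cKO R0D3 replicate 1, R0D3 replicate 2 or R40D3 replicate 2 was left out, and 6 when R40D3 replicate 1 was. Summed osteoclast markers in the R40D3 libraries were 13200 and 24800 CPM, against 415 and 325 in R0D3. Proliferation genes summed to 319 and 724 CPM in R0D3 and to 207 and 384 in R40D3.

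**Figure D4:**
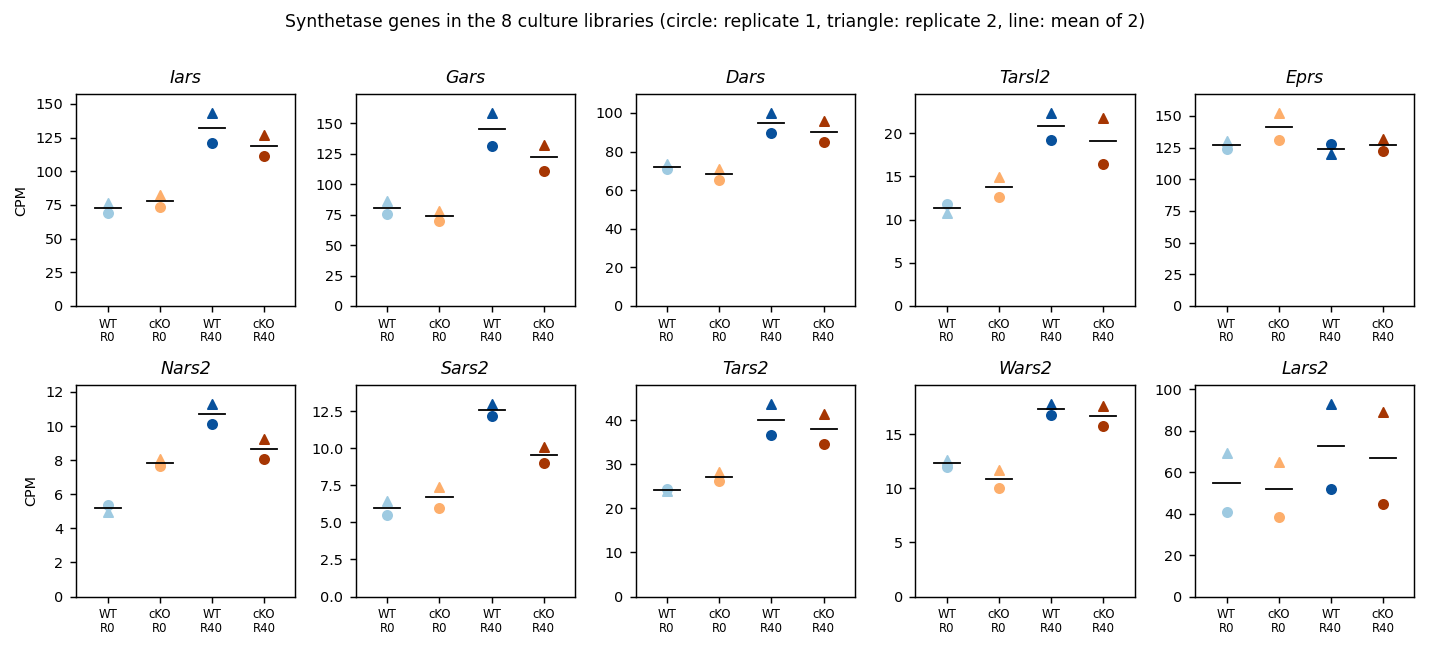
CPM of 10 synthetase genes in the 8 culture libraries, with a line at the mean of each pair. Iars, Gars and Dars stand higher at R40D3 in both genotypes, Eprs lies between 120 and 152 in every library, Nars2 in LysM-cKO R0D3 lies between the WT groups, and Lars2 separates by replicate in all 4 groups.

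No synthetase gene passed for LysM-cKO against WT at either condition. At R40D3 the count was 0 of 38 (all genes 0.0143%), 1 of 38 had an unadjusted p under 0.05 against 7.47% of all genes, and DESeq2 called 0. Log2 fold changes were small and mostly below 0: the medians were -0.08 for cytosolic (17 of 19 below 0), -0.18 for dual and -0.10 for mitochondrial enzymes (14 of 17 below 0), beside -0.01 for all genes, of which 48.6% were above 0. Without LysM-cKO R40D3 replicate 1 the cytosolic and mitochondrial medians were 0.03 and 0.05, above 0. Both LysM-cKO libraries lay below both WT libraries for 9 genes, against 18.9% of all genes, and above for 0, against 19.7%. Sars2 measured 12.2 and 13.0 CPM in WT and 8.99 and 10.1 in LysM-cKO, with the groups apart (log2 fold change -0.40, SE 0.17, edgeR adjusted p = 0.648). Yars2 measured 10.4 and 13.3 CPM in WT and 9.84 and 8.5 in LysM-cKO (log2 fold change -0.36, SE 0.19, edgeR adjusted p = 0.663). Gars (131 and 158 against 111 and 132 CPM) and Mars (49.4 and 58.5 against 42.5 and 50.4) overlapped, and Vars (62.0 and 63.9 against 55.1 and 57.1) was lower in both LysM-cKO libraries. Summed osteoclast markers were also lower there, at 13200 and 24800 CPM against 26300 and 38800, and so were macrophage markers, at 20100 and 18200 against 26700 and 27400. Of the 8 macrophage markers 6 were below 0 in log2 fold change and 2 above, with the groups apart and lower for 3 and higher for 1. Stromal fibroblast markers summed to 1670 and 502 CPM against 1850 and 1800, and proliferation genes, 9 of 10 of them above 0 in log2 fold change, to 207 and 384 against 175 and 165. The part of these in the synthetase values was not tested. Of the 24 amino acid stress genes 0 passed at R40D3, and 19 had log2 fold changes below 0 (median -0.27) and 5 above. Groups were apart and lower for 6 of the 24, against 18.9% of all genes, and higher for 0, against 19.7%.

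At R0D3 the count was again 0 of 38 (all genes 0.0143%), with 1 of 38 at an unadjusted p under 0.05 against 4.42% of all genes and 0 by DESeq2. Medians were 0.02 for cytosolic, -0.12 for dual and 0.15 for mitochondrial enzymes (11 of 17 above 0), beside 0.01 for all genes, of which 51.7% were above 0. The cytosolic median was below 0 without LysM-cKO replicate 2 (-0.10) or WT replicate 1 (-0.07), and the dual median was 0.01 without WT replicate 2. Summed macrophage markers were 23800 and 24300 CPM in LysM-cKO against 38200 and 43400 in WT. The 8 macrophage markers were mixed, with 3 above 0 and 5 below in log2 fold change (median -0.07), and groups apart and lower for 2. Proliferation genes, 10 of 10 above 0 in log2 fold change, summed to 319 and 724 CPM in LysM-cKO against 209 and 318 in WT. Osteoclast markers summed to 415 and 325 CPM against 471 and 352, stromal fibroblast markers to 1800 and 590 against 1580 and 1420, and the part of these in the synthetase values was not tested. In both LysM-cKO libraries 6 genes were higher (against 17.5% of all genes) and 4 were lower (against 14.8%). The smallest p was that of Nars2, at 5.36 and 4.97 CPM in WT and 7.65 and 8.06 in LysM-cKO (log2 fold change 0.60, SE 0.17, edgeR adjusted p = 0.997). Eprs measured 124 and 130 CPM in WT and 131 and 152 in LysM-cKO, and Tarsl2 11.8 and 10.8 against 12.6 and 14.9, both higher in each LysM-cKO library. Iars2 measured 60.8 and 62.8 CPM against 65.4 and 76.5. Qars, the glutaminyl gene, which lies 44344 bases from the deleted gene Impdh2 on chromosome 9 with 1 protein-coding gene between them, measured 121 and 133 CPM in WT and 117 and 121 in LysM-cKO at R0D3 and 128 and 135 against 116 and 136 at R40D3. Of the 24 amino acid stress genes 0 passed at R0D3, and 20 had log2 fold changes below 0 (median -0.185) and 4 above. Groups were apart and lower for 5 of the 24, against 14.8% of all genes, and higher for 1, against 17.5%.

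An interaction term tested whether the deletion acted unequally in the 2 conditions. It was called for 0 of 38 members and for 0.0% of all genes, and 1 member, Nars2, had an unadjusted p under 0.05, against 1.77% of all genes. Nars2 rose by 1.05 on the log2 scale in WT, whereas in LysM-cKO it measured 7.65 and 8.06 CPM at R0D3 and 8.09 and 9.24 at R40D3, a log2 fold change of 0.14 that did not pass. The difference was -0.91 (SE 0.23, edgeR adjusted p = 1.0, and 0.811 with the replicate block). For Sars2 it was -0.57 and for Tarsl2 -0.40, neither of which passed. Class medians of this difference were -0.10 for cytosolic, -0.07 for dual and -0.25 for mitochondrial enzymes, beside -0.02 for all genes. Without LysM-cKO R40D3 replicate 1 the cytosolic and dual medians were 0.017 and 0.079, and the dual median was above 0 also without LysM-cKO R0D3 replicate 2 (0.015), WT R0D3 replicate 1 (0.052) or WT R40D3 replicate 2 (0.052). The smaller count of calls in LysM-cKO than in WT was not shown to be a difference between genotypes.

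**Figure D5:**
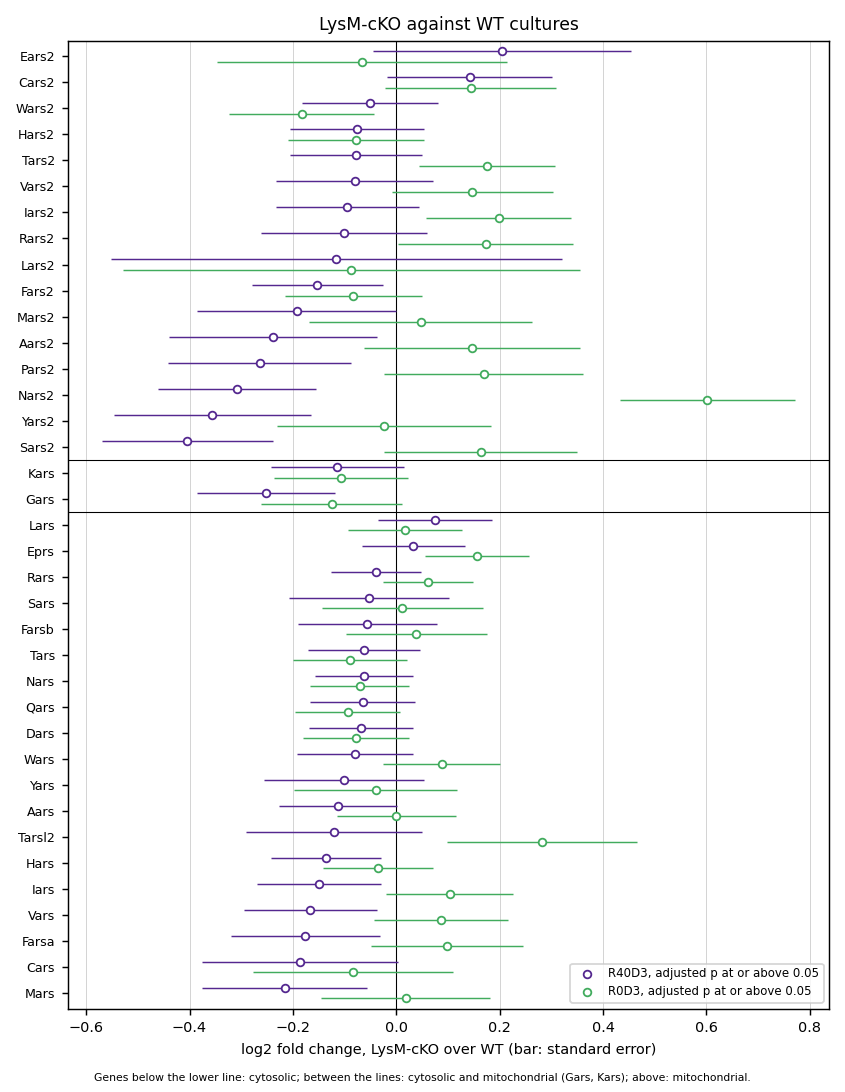
Log2 fold change of LysM-cKO over WT for 37 synthetase genes, each with its standard error, at R40D3 (purple) and R0D3 (green). No point passed an adjusted p of 0.05, and Nars2 shows the widest separation between conditions, at -0.31 and 0.60.

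Replicate 2 of the cultures ran above replicate 1 for many of these genes. It was the higher in all 4 groups for 22 of 38 synthetase genes (57.9%), against 17.8% of all genes tested. Lars2, the mitochondrial leucyl enzyme, showed the widest such gap, with 40.7, 38.5, 52.0 and 44.7 CPM in replicate 1 of WT R0D3, LysM-cKO R0D3, WT R40D3 and LysM-cKO R40D3 and 69.1, 64.8, 93.0 and 89.1 in replicate 2. Within each replicate number, Lars2 was higher at R40D3 than at R0D3 in both genotypes, and it passed with the block in both (edgeR adjusted p = 0.0079 in WT and 0.0197 in LysM-cKO) but not without it (0.605 and 0.679).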

How the data were processed

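RNA was measured in 12 mouse libraries in 6 groups of 2, made from TRIzol RNA with an mRNA library kit, per the labels' protocols. What the authors deposited are unnormalized counts by Ensembl identifier, as 1 table for the forelimb and 1 per replicate number for the cultures. The submitters' processing notes name FastQC 0.11.2, Trimmomatic 0.36, HISAT2 2.1.0, DESeq2 1.12.4 and GRCm38; the counting tool, annotation and use of strand are not given in the sources used here. The members and lists were chosen with earlier results of these data known. Symbols and transcript lengths came from GENCODE M21, promoters from RefSeq. Counts were tested with the quasi-likelihood test of edgeR 4.0.16 (legacy = FALSE, filterByExpr, TMM, group means, R 4.3.3), two-sided, with calls at a Benjamini-Hochberg adjusted p under 0.05 over all genes tested. The forelimb and the culture libraries were fitted in separate models; SE is the absolute log2 fold change over the square root of F. Class medians are medians of fitted log2 fold changes, and groups are apart where no library of one reaches the other. The script was tested on simulated counts. DESeq2 1.42.0, its size factors, no filter, the replicate number as a block, only the compared libraries, each library left out and, chosen after seeing the data, a term for Xist in the forelimb were alternatives. Same-numbered culture libraries deviated together in all 6 pairs of groups (r from 0.343 to 0.609). The forelimb gave only 1 such value, 0.261. The replicate number paired libraries only in the alternative with a block. The main tests left this pairing out. Named with a test were up to 6 members past the threshold by smallest p, or the 3 smallest p where fewer than 3 passed. This was done per comparison, for cytosolic plus dual and mitochondrial enzymes apart. Up to 3 passing members of each other list were added, as was Impdh2. Tars, Gatc, Asns and Lars2 were given with a test outside this rule. Other names are said to be chosen later or describe levels. Of the members, 1 is counted in its class but its own values are not reported here. The precision is that of 2 libraries a group at the totals given above.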

Additional observations from a re-analysis of the deposited data

Results flagged for a closer look

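For Nars2 and Pars2 the genotypes had libraries that did not overlap at either condition and lay on opposite sides of WT. Nars2 was lower in LysM-cKO at R40D3 (log2 fold change -0.31) and higher at R0D3 (0.60), a difference of -0.91 (SE 0.23, edgeR adjusted p = 1.0 without and 0.811 with the replicate block). Pars2, the mitochondrial prolyl enzyme, measured 6.43 and 5.56 CPM in WT and 5.13 and 4.87 in LysM-cKO at R40D3, and 3.96 and 3.86 against 4.43 and 4.37 at R0D3. Its effects were -0.26 and 0.17, a difference of -0.43 (edgeR adjusted p = 1.0). The same pattern held for 458 of 14030 genes (3.26%) and for 2 of 38 synthetase genes.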

How the results depend on the processing

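Limits: each group held 2 libraries. The 14 members called for R40D3 against R0D3 in WT became 13 with DESeq2 or its size factors, 8 with no filter on low counts (3 cytosolic, 4 mitochondrial), 18 with only the 4 compared libraries (8 cytosolic) and 27 with the replicate block (14 cytosolic). With each library left out they were 1 to 3 cytosolic, 0 to 1 dual and 0 to 5 mitochondrial, with a cytosolic median of 0.22 to 0.42. In LysM-cKO the 4 became 3 with DESeq2 or its size factors (1 cytosolic each), 2 with no filter (1 cytosolic, 0 mitochondrial), 1 with only the compared libraries (0 cytosolic, 0 mitochondrial) and 16 with the replicate block (9 cytosolic, 6 mitochondrial). With each library left out they were 0 to 2 cytosolic, 0 to 1 dual and 0 to 3 mitochondrial, with medians of 0.12 to 0.38, 0.31 to 0.57 and 0.12 to 0.48. The block changed no member's call in the other 4 comparisons. Leave-one-out medians of LysM-cKO against WT ran from -0.20 to 0.03 (cytosolic) and -0.28 to 0.05 (mitochondrial) at R40D3 and from -0.10 to 0.10 (cytosolic) and -0.24 to 0.01 (dual) at R0D3. Those of the difference between conditions ran from -0.198 to 0.017 (cytosolic) and -0.198 to 0.079 (dual), so that these 6 medians changed sign; the forelimb mitochondrial median from 0.21 to 0.30. Of the single genes named, the value that changed sign was that of Impdh2 in WT R40D3 against R0D3 (-0.081 to 0.259) and in the difference between conditions (-0.10 to 0.24). The cause of these changes was not tested, other than that fewer libraries entered each of these fits.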

Other observations

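Farsa with Farsb, and Tars with Tarsl2, stood in different ratios in forelimb and culture. Farsa and Farsb encode both subunits of the cytosolic phenylalanyl enzyme. Per transcript length, Farsa stood at 1.49 and 1.32 times Farsb in the WT forelimbs and at 1.70 and 1.75 times in Prx-cKO, but at 0.471 to 0.518 times in the 8 cultures. The ratio of Tars to Tarsl2 was 6.69 to 8.81 in the forelimbs and 2.44 to 4.24 in the cultures. The forelimb and culture tables were deposited separately and the shift has no test.

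Wars2 differed more within than between the forelimb genotypes, at 17.0 and 8.46 CPM in WT and 7.03 and 20.0 in Prx-cKO. The 2 higher libraries were those with 2190 and 2740 CPM of Xist. The other synthetase genes did not separate this way to the same extent, as the plot of the 4 forelimb libraries shows. The E-box letters CACGTG were found in 4 of 12 cytosolic promoters (Aars, Farsb, Iars and Tars), 0 of 2 dual and 1 of 14 mitochondrial genes (Ears2), against 8.09% of all genes in the table.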
